A study of Mus musculus with 6 samples.

Results

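The mitochondrial protein import machinery was followed in mouse T helper 17 (Th17) cells with and without STIM1, the calcium sensor of the endoplasmic reticulum that opens store-operated calcium channels in the plasma membrane. Its members were chosen by name: every row whose symbol starts with Timm or Tomm and a digit, plus Samm50, Grpel1, Dnajc19, Pmpca, Pmpcb, Mtx1 and Mtx2, and with at least 10 normalised counts on average over the 6 libraries. The names matched 31 rows, of which 29 reached that mean, among 11947 genes that reached it in a table of 23420 rows. The rows that did not reach it were Timm8a2, with a mean of 1.28, and Tomm20l, with a mean of 0.216 normalised counts.

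Poly(A) RNA was measured in 3 libraries of Stim1KO Stat3C cells (Stim1fl/fl Stat3CSTOPfl/fl CD4-Cre) and 3 of Stat3C cells (Stat3CSTOPfl/fl CD4-Cre), all on the C57BL/6 background. Both groups therefore carry Stat3C, a version of STAT3 that is active without a cytokine signal and is made once Cre has removed a STOP cassette. CD4-Cre acts in developing T cells, before the naive CD4 T cells were isolated, and in CD8 T cells too. These cells were grown for 2 days on plate-bound antibodies to CD3 and CD28 in the presence of IL-23, IL-6 and IL-1b, conditions that give the Th17 cells called pathogenic, and the design compares the transcriptomes of the 2 genotypes. The labels do not say whether the 3 libraries of a group came from separate mice, so a p-value here speaks only of the spread among these libraries, which may in part be technical.

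Nearly all mitochondrial proteins are made in the cytosol and have to be imported. They enter through the TOM complex of the outer membrane. From there, proteins with an N-terminal presequence pass the TIM23 channel of the inner membrane, are pulled in by an Hsp70 motor and lose the presequence to the matrix processing peptidase. Small TIM chaperones carry hydrophobic proteins across the intermembrane space, either to the TIM22 complex, which inserts metabolite carriers into the inner membrane, or to the SAM complex, which inserts beta-barrel proteins into the outer membrane. T cells enlarge their mitochondria when they are activated, which draws on this machinery.

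Stim1 RNA, which checks the labels, stood at 811, 794 and 687 normalised counts in Stim1KO Stat3C cells and at 1999, 1969 and 1931 in Stat3C cells, a log2 fold change of -1.37 (SE 0.08, limma adjusted p = 0.000287). It was lower in all 3 Stim1KO Stat3C libraries than in any Stat3C library, and a count over the whole gene does not show which exons are left. The recovered depth was 16009755 to 22519269 reads in Stim1KO Stat3C libraries and 23092044 to 51347367 in Stat3C libraries. A member had 348 to 15946 reads in a library, so relative counting error differs between members and is largest for those with the fewest reads. Replicate 3 of each group held Xist RNA, at 8362 normalised counts or more, and the other 4 libraries at most 3.53. As Xist is transcribed in female cells, the 3 libraries of a group did not all come from 1 mouse. The 6 T cell markers (Cd3e, Cd3d, Cd3g, Cd4, Cd28 and Lck) summed to 40665 to 44005 normalised counts in Stim1KO Stat3C libraries. In Stat3C libraries they summed to 33105 to 36519, which was lower throughout. A sum over these genes does not tell CD4 from CD8 T cells. Markers of cells other than CD4 T cells were scarce, and lower in Stim1KO Stat3C libraries for the CD8 and B cell lists. The 2 CD8 markers summed to 111 to 159 against 277 to 453 in Stat3C, the 5 B cell markers to 30.1 to 58.9 against 124 to 352, and the 5 myeloid markers to 5.97 to 17.2 against 17.4 to 166. The myeloid ranges were less than 1 read apart. Their value of 166 was that of Stat3C replicate 2, with 39.0 and 17.4 in replicates 1 and 3. The 4 NK cell markers overlapped, at 4.30 to 13.7 against 8.72 to 18.1. Of the B cell, NK cell and myeloid lists, 3 markers each were at 0 in at least 1 library and 0 in all 6. Their part in the results below was not tested, and in bulk RNA fewer cells of a type and less RNA per cell cannot be told apart.

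RNA of the import machinery, summed over its members, was lower in Stim1KO Stat3C cells. Its 29 members summed to 63031, 65709 and 69630 normalised counts in Stim1KO Stat3C libraries, which is 0.287%, 0.296% and 0.311% of all counts, against 78038, 72232 and 80688 in Stat3C libraries, which is 0.351%, 0.329% and 0.361%. The lowest Stat3C sum lay above the highest Stim1KO Stat3C sum. By limma with Benjamini-Hochberg adjustment over all 11947 genes, 6 members fell (Timm13, Tomm5, Tomm40, Timm23, Mtx1 and Samm50) and 0 rose, and 23 did not pass. That is 20.7% of the members lower, where 4.96% of all tested genes were lower and 8.62% were higher. Among the 5834 genes whose mean lay within the range of the members' means (538 to 6363 normalised counts), 6.68% were lower. At an unadjusted p under 0.05, limma had 16 members lower and 0 higher, where 14.0% of all tested genes were lower. On the recovered reads edgeR called 7 members lower and 0 higher, with 4.70% of all tested genes lower. DESeq2 called 14 members lower and 0 higher, with 8.40% of all tested genes lower.

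The direction was shared beyond the 6 called genes. The log2 fold change was negative for 27 of 29 members, or 93.1%, against 50.2% of all tested genes and 52.3% of genes in the same range of means. The median log2 fold change of the members was -0.21, against -0.01 for genes in the same range of means. For 16 members, 55.2%, every Stim1KO Stat3C library lay below every Stat3C library, where 16.4% of all tested genes did. The exceptions to the negative sign were Tomm34 and Tomm40l, described below. How many members passed depended on single libraries, and the share of all tested genes called lower moved with it. Without Stim1KO Stat3C replicate 1 limma called 0 members, with 1.66% of all tested genes lower (at an unadjusted p under 0.05, 11 members and 10.6% of all tested genes). Without replicate 2 of that group it called 1 (Tomm40), with 1.79% of all tested genes lower, and without its replicate 3 it called 4 (Timm13, Tomm40, Tomm5 and Timm17b), with 3.0%. Timm13 alone passed without Stat3C replicate 1, with 1.17% of all tested genes lower, and without Stat3C replicate 3, with 1.29%. Without Stat3C replicate 2, 13 members passed, with 9.98% of all tested genes lower. The sign was negative for 26 members under all 19 alternatives tried.

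**Figure D1:**
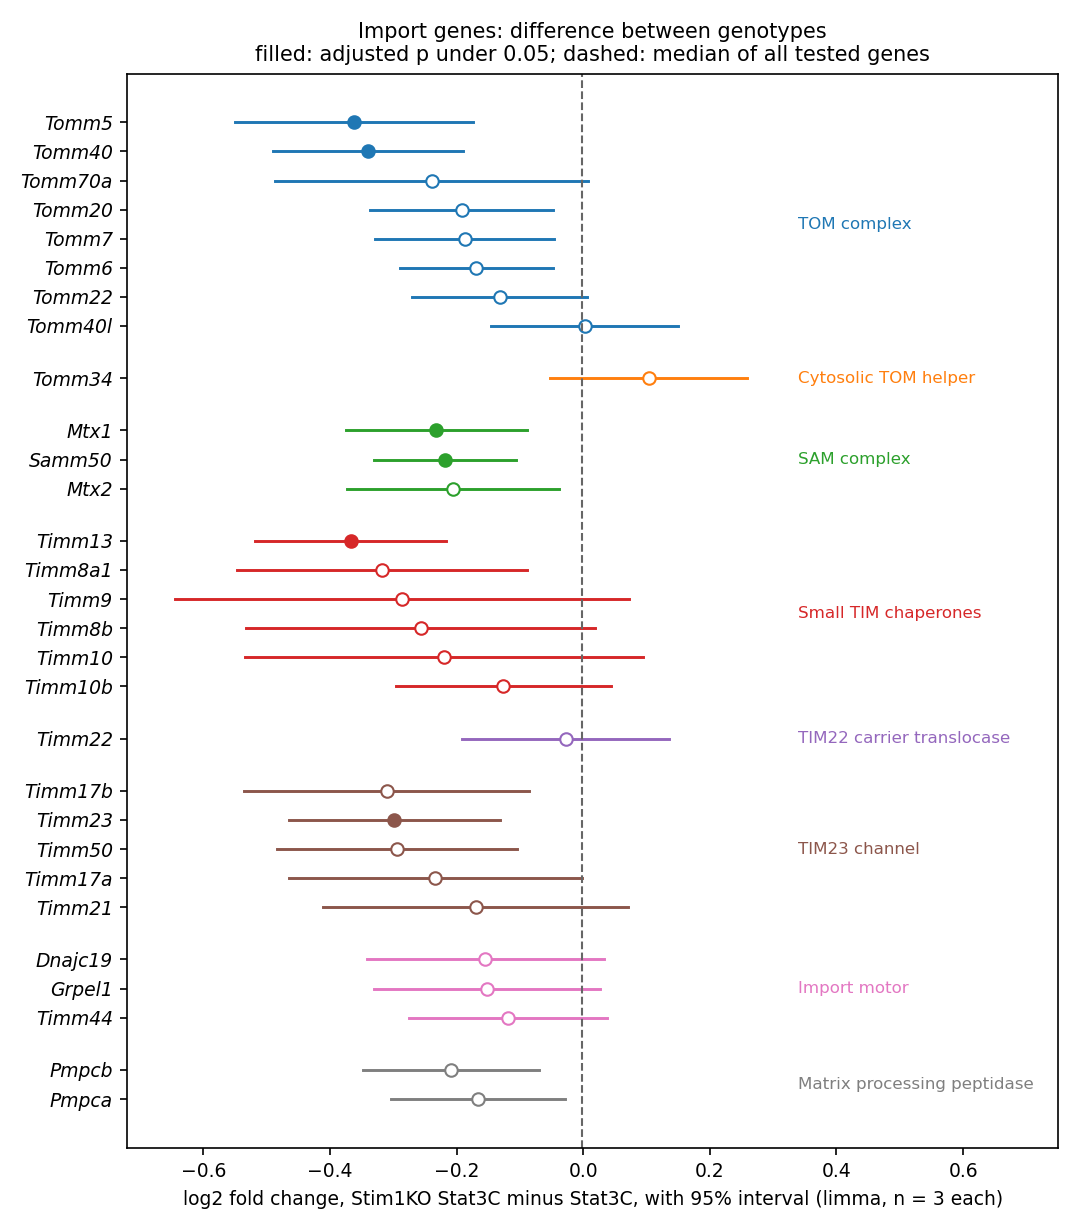
Log2 fold change, Stim1KO Stat3C minus Stat3C, of the 29 import genes with 95% confidence intervals from limma, grouped by role; filled points passed an adjusted p of 0.05. The points lie below 0 for 27 genes, and those of Tomm34 and Tomm40l do not.

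In the TOM complex, the entry gate of the outer membrane, 2 of 8 members fell, beside 4.96% of all tested genes lower. The log2 fold change was negative in 7, beside 50.2% of all tested genes, and the median of the 8 was -0.19. Tomm40, the beta-barrel channel through which precursors cross, had 4633, 4991 and 4917 normalised counts in Stim1KO Stat3C cells and 6353, 5630 and 6438 in Stat3C cells. Tomm5, a small subunit attached to the channel, had 2681, 2773 and 2939 in Stim1KO Stat3C cells and 3778, 3181 and 3863 in Stat3C cells. In both genes the groups were apart, and Stat3C replicate 2 was the Stat3C library nearest to the Stim1KO Stat3C libraries.

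Tomm40 averaged 4847 ± 189 normalised counts in Stim1KO Stat3C cells and 6140 ± 444 in Stat3C cells (SD, n = 3 each), a mean 21.1% lower, with a log2 fold change of -0.34 (SE 0.07, limma adjusted p = 0.0143). Tomm5 averaged 2798 ± 130 against 3607 ± 372, a mean 22.4% lower, with a log2 fold change of -0.36 (SE 0.08, limma adjusted p = 0.0255). Tomm40 (chr7:19701313-19715438, minus strand) and Tomm5 (chr4:45105208-45108114, minus strand) are placed by the GENCODE annotation of GRCm38.

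The other subunits of the complex did not pass. Tomm20, the receptor that binds presequences and the member with the highest mean of all, had 5616, 6074 and 6129 normalised counts in Stim1KO Stat3C cells and 6832, 6341 and 7188 in Stat3C cells, without overlap (log2 fold change -0.19, limma adjusted p = 0.0819). The small subunits Tomm6 and Tomm7 also had no overlap, with log2 fold changes of -0.17 and -0.19 (limma adjusted p = 0.0696 and 0.0818). Tomm70a, the receptor for carrier precursors that arrive bound to Hsp90 and Hsp70, had the widest spread of the complex, at 4044, 4881 and 5326 against 6043, 5046 and 5667, and its groups overlapped. Tomm22, the central receptor that holds the complex together, overlapped as well, at 3444 ± 186 against 3772 ± 162 (log2 fold change -0.13).

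Tomm40l, a second Tomm40-like channel gene, stood at 1280, 1190 and 1164 normalised counts in Stim1KO Stat3C cells and 1236, 1175 and 1216 in Stat3C cells. The groups overlapped throughout, and the 95% confidence interval of its log2 fold change ran from -0.15 to 0.15. Tomm34, a cytosolic co-chaperone that binds Hsp70 and Hsp90, had a positive value that did not pass. It stood at 2014, 2242 and 2294 in Stim1KO Stat3C cells and 2042, 1946 and 2104 in Stat3C cells, with a log2 fold change of 0.10 (95% confidence interval -0.05 to 0.26, limma adjusted p = 0.332) and overlapping groups.

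**Figure D2:**
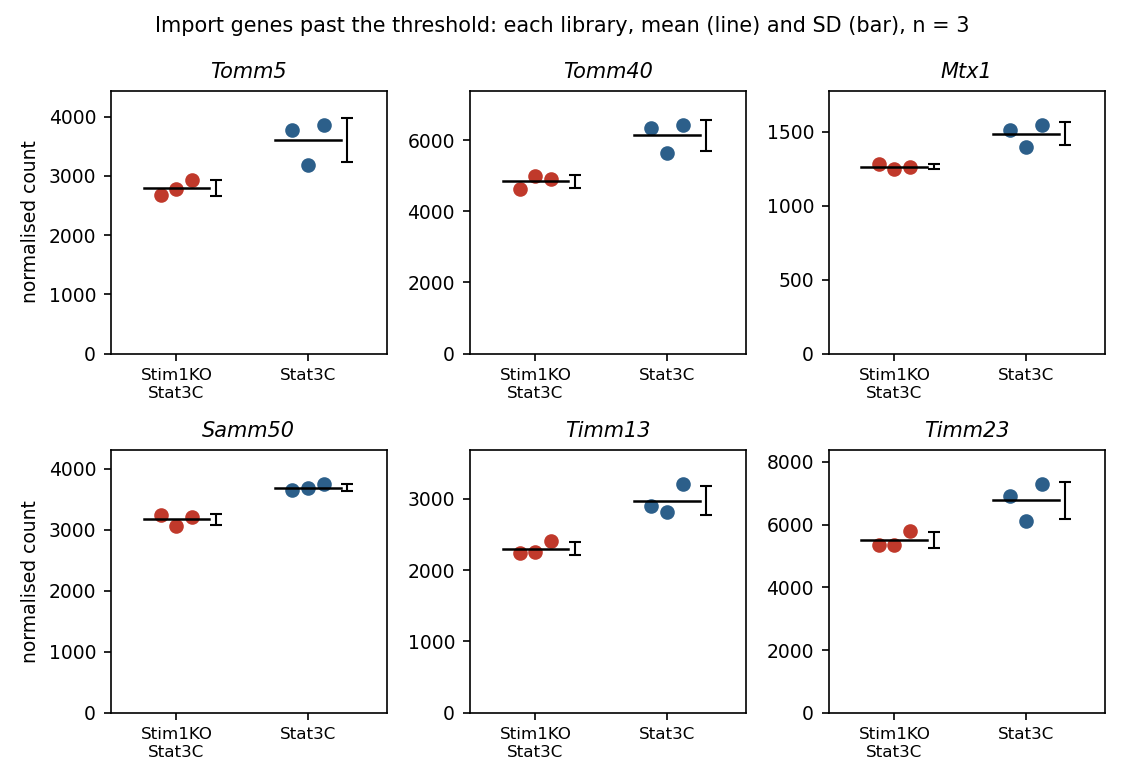
Normalised counts in each library (points, in the order of replicates 1 to 3), with the group mean (line) and SD (bar), n = 3, for the 6 import genes past the threshold, on axes that start at 0; Stim1KO Stat3C libraries stand left of Stat3C libraries. In all 6 genes the highest Stim1KO Stat3C point lies below the lowest Stat3C point, most narrowly for Mtx1 (1280 against 1399) in absolute counts.

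In the SAM complex 2 of 3 members fell, beside 4.96% of all tested genes lower. All 3 had groups apart with Stim1KO Stat3C lower, beside 16.4% of all tested genes. With 1 library left out, the 2 calls held only without Stat3C replicate 2, beside 9.98% of all tested genes lower. Samm50, the barrel that inserts beta-barrel proteins such as Tomm40 into the outer membrane, had 3242, 3072 and 3217 normalised counts in Stim1KO Stat3C cells and 3649, 3681 and 3753 in Stat3C cells. Mtx1, a metaxin on the cytosolic face of the complex, had 1280, 1250 and 1263 in Stim1KO Stat3C cells and 1514, 1399 and 1547 in Stat3C cells. The lowest Stat3C library of each gene lay above all 3 Stim1KO Stat3C libraries.

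Samm50 averaged 3177 ± 91.5 in Stim1KO Stat3C cells and 3694 ± 53.4 in Stat3C cells, with a log2 fold change of -0.22 (SE 0.05, limma adjusted p = 0.0246) and a mean 14.0% lower in Stim1KO Stat3C cells. Mtx1 averaged 1264 ± 15.3 against 1487 ± 77.8, with a log2 fold change of -0.23 (SE 0.06, limma adjusted p = 0.0443) and a mean 15.0% lower. Mtx2, the partner of Mtx1, was at 1122 ± 76.6 against 1292 ± 57.2 and did not pass (log2 fold change -0.20, limma adjusted p = 0.101). Samm50 lies at chr15:84192241-84217267 on the plus strand and Mtx1 at chr3:89209081-89227088 on the minus strand (GRCm38).

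Of the small TIM chaperones of the intermembrane space, 1 of 6 fell, beside 4.96% of all tested genes lower. All 6 had negative log2 fold changes, beside 50.2% of all tested genes, with a median of -0.27. Timm13, which pairs with Timm8 proteins in a ring that carries Timm23 and other precursors, had 2238, 2256 and 2408 normalised counts in Stim1KO Stat3C cells and 2893, 2816 and 3204 in Stat3C cells, with the groups apart. Its mean was 2301 ± 93.6 in Stim1KO Stat3C cells and 2971 ± 206 in Stat3C cells, 22.6% lower, and its log2 fold change of -0.37 (SE 0.07, limma adjusted p = 0.0113) was the most negative among the members. It passed under 17 of the 19 alternatives, and no other member passed under more. The gene lies at chr10:80899450-80900969 on the minus strand (GRCm38).

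The partners of Timm13 had overlapping groups. Timm8a1, the X-linked gene whose human counterpart is mutated in deafness-dystonia syndrome, was at 1853 ± 193 in Stim1KO Stat3C cells and 2310 ± 233 in Stat3C cells, with a log2 fold change of -0.32 (limma adjusted p = 0.0709). The highest Stim1KO Stat3C value of Timm8a1, 2044, was just above the lowest Stat3C value, 2043. Timm8b stood at 887 ± 85.5 against 1064 ± 157 (log2 fold change -0.26). Timm9 and Timm10, which form the ring for carrier proteins, stood at 680 ± 140 against 821 ± 99.1 and at 585 ± 92.4 against 679 ± 82.0, with log2 fold changes of -0.29 and -0.22. These are sizes close to those of called members, with wider spreads between replicates. Timm10b, which docks the ring on the TIM22 complex, had groups that did not overlap but a log2 fold change of -0.13 (limma adjusted p = 0.28).

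Timm22, the channel of the carrier translocase and the member of that complex in the set, was near equal in the groups. It stood at 803, 790 and 843 normalised counts in Stim1KO Stat3C cells and at 801, 806 and 877 in Stat3C cells. The groups overlapped, with a log2 fold change of -0.03 (95% confidence interval -0.19 to 0.14, limma adjusted p = 0.82).

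In the TIM23 channel, the inner membrane route for presequence proteins, 1 of 5 members fell, beside 4.96% of all tested genes lower. All 5 had negative log2 fold changes, beside 50.2% of all tested genes, with a median of -0.29. Timm23, the channel subunit that gives the complex its name, had 5357, 5349 and 5792 normalised counts in Stim1KO Stat3C cells and 6903, 6127 and 7293 in Stat3C cells, with the groups apart. It averaged 5499 ± 253 against 6774 ± 593, a mean 18.8% lower, with a log2 fold change of -0.30 (SE 0.07, limma adjusted p = 0.0324). The gene lies at chr14:32180162-32201898 on the minus strand (GRCm38).

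Timm50, the receptor that takes presequences from the TOM complex to the channel, had 1917, 2251 and 2201 normalised counts in Stim1KO Stat3C cells and 2643, 2390 and 2772 in Stat3C cells. Its groups were also apart and its log2 fold change of -0.29 was of similar size, but it missed the threshold (limma adjusted p = 0.0522). Timm17b, an X-linked core subunit, did not overlap either, at 725 ± 91.9 against 894 ± 19.6 (log2 fold change -0.31, limma adjusted p = 0.0721). Its autosomal paralogue Timm17a stood at 2257 ± 206 against 2658 ± 308 with overlap (log2 fold change -0.23). Per kilobase of the principal transcript, taken as 7280 and 2381 bases long, Timm17a and Timm17b were close. They stood at 310 ± 28.3 and 304 ± 38.6 normalised counts in Stim1KO Stat3C cells and 365 ± 42.4 and 376 ± 8.24 in Stat3C cells. That closeness rests on the lengths taken, and another choice of transcript could undo it. In counts not divided by length Timm17a was higher than Timm17b in both genotypes. Each of them also has 1 other gene with a near-identical transcript. Timm21, which links the channel to the TOM complex, stood at 507 ± 64.4 against 568 ± 24.7 with overlap.

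The import motor had 3 members in the set, and limma, edgeR and DESeq2 called 0 of them. The shares of all tested genes lower were 4.96%, 4.70% and 8.40%. At an unadjusted p under 0.05 limma had 0 of the 3 past it, beside 14.0% of all tested genes lower. All 3 log2 fold changes were negative, with a median of -0.15. Timm44, the anchor of the motor at the channel, had 2146, 2115 and 2347 normalised counts in Stim1KO Stat3C cells and 2454, 2228 and 2495 in Stat3C cells, with overlap (log2 fold change -0.12). Grpel1, the exchange factor that frees ADP from the motor's Hsp70, stood at 2135 ± 215 against 2364 ± 47.7 with overlap. Dnajc19, the J protein that starts the Hsp70 cycle, stood at 552 ± 36.6 against 614 ± 16.9 without overlap. Hspa9, the Hsp70 itself, is not a member by name. It averaged 21350 ± 1517 against 24870 ± 2337 normalised counts and did not pass (log2 fold change -0.22, limma adjusted p = 0.116).

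The matrix processing peptidase, a dimer that removes presequences, had both subunits lower without overlap, beside 16.4% of all tested genes. Neither subunit passed by limma. Pmpcb, the catalytic subunit, stood at 1643 ± 78.7 normalised counts in Stim1KO Stat3C cells and 1898 ± 61.3 in Stat3C cells (log2 fold change -0.21, limma adjusted p = 0.0574). Pmpca, the partner that binds the substrate, had 4054, 4236 and 4506 in Stim1KO Stat3C cells and 4702, 4619 and 5036 in Stat3C cells (log2 fold change -0.17, limma adjusted p = 0.105). Both passed by DESeq2 on the recovered reads, beside 8.40% of all tested genes lower, and Pmpcb by edgeR, beside 4.70%.

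Levels of different genes can be set side by side only per length. The principal transcript was the longest of those ranked first in the annotation, and another choice could change the order given here. Per kilobase of the principal transcript, Timm23 was highest, with 4688 ± 216 normalised counts in Stim1KO Stat3C cells and 5775 ± 506 in Stat3C cells. Its counts are uncertain, as 6 other genes have near-identical transcripts. Tomm5 followed with 4378 ± 204 against 5645 ± 582 and Tomm6 with 4044 ± 107 against 4548 ± 165 per kilobase. The level of Tomm6 is uncertain too, as it shares 859 of its 1131 exon bases with Gm21981 on the same strand. No value is given here for Gm21981. In Stat3C cells the levels of Timm23 and Tomm5 did not differ beyond their spread. At the low end stood Timm21 with 210 ± 26.6 against 235 ± 10.2, Timm10b with 248 ± 14.1 against 271 ± 11.3, and Tomm40l with 257 ± 13.0 against 257 ± 6.56 per kilobase. The channel Tomm40 was thus 2945 ± 115 against 3730 ± 270 per kilobase, above its paralogue Tomm40l in both genotypes. Tomm40 was higher in counts not divided by length too. How far above is uncertain, as the principal transcript of Tomm40l was taken as 4712 bases long. Tomm40l also shares 3304 of its 5135 exon bases with Nr1i3 on the opposite strand.

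**Figure D3:**
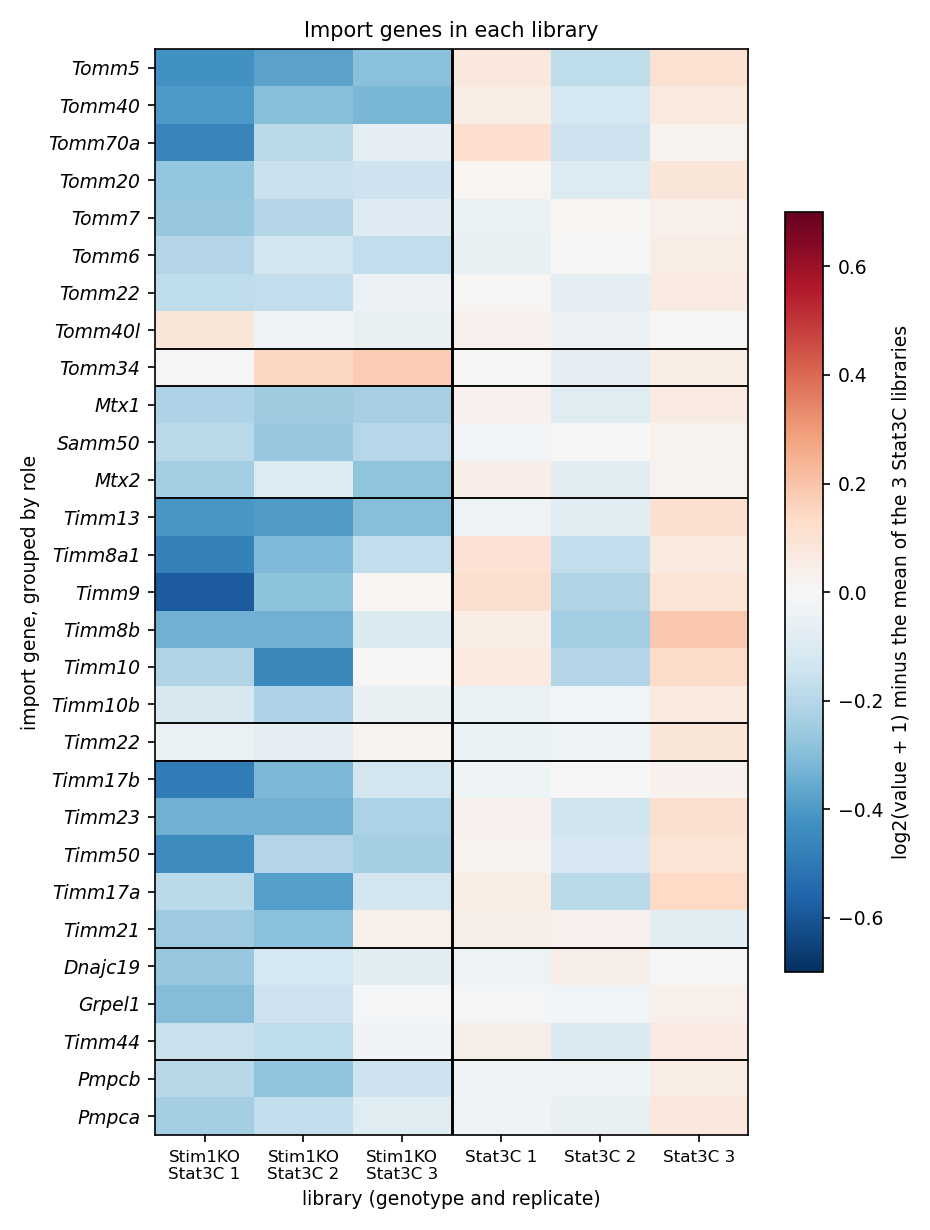
Heat map of the log2 deviation of each of the 29 import genes (rows, grouped by role) from its Stat3C mean in each library (columns, Stim1KO Stat3C left of Stat3C); blue is below and red above that mean. The Stim1KO Stat3C columns are blue for most genes, with medians of -0.25, -0.22 and -0.10 in replicates 1 to 3, and the Stat3C libraries have medians of 0.03, -0.07 and 0.06.

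The members also varied together between libraries of the same genotype. Their median log2 deviation from the Stat3C mean was -0.25, -0.22 and -0.10 in Stim1KO Stat3C replicates 1 to 3, and 0.03, -0.07 and 0.06 in Stat3C replicates 1 to 3. Stim1KO Stat3C replicate 3 was the highest of its group for 22 of 29 members, where it was so for 35.8% of all tested genes, and replicate 1 the lowest for 17, against 35.2%. Stat3C replicate 2 was the lowest of its group for 21 members, against 38.6% of all tested genes, and replicate 3 the highest for 22, against 33.4%. Both replicates 3 were the libraries with Xist RNA. With Xist level as a covariate, limma called 8 members lower, with 5.30% of all tested genes lower.

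Paralogues and partners within the machinery were compared as the log2 difference between both genes of a pair in each library. In counts not divided by length, which leaves the shift between genotypes as it is, the log2 value of Tomm40 minus that of Tomm40l was 1.85, 2.07 and 2.08 in Stim1KO Stat3C libraries and 2.36, 2.26 and 2.40 in Stat3C libraries. These ranges were apart, and the difference narrowed by 0.34 log2 units, but an exact two-sided permutation test of 3 against 3 libraries cannot go below p = 0.1, the value it gave here (0.6 after Benjamini-Hochberg adjustment over 6 pairs). The other 5 pairs (Timm17a and Timm17b, Timm8a1 and Timm8b, Mtx1 and Mtx2, Pmpca and Pmpcb, Timm9 and Timm10) shifted by -0.07 to 0.08 log2 units, with exact permutation p between 0.5 and 0.9 (0.9 adjusted). Their 2 genotypes overlapped in every such pair.

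**Figure D4:**
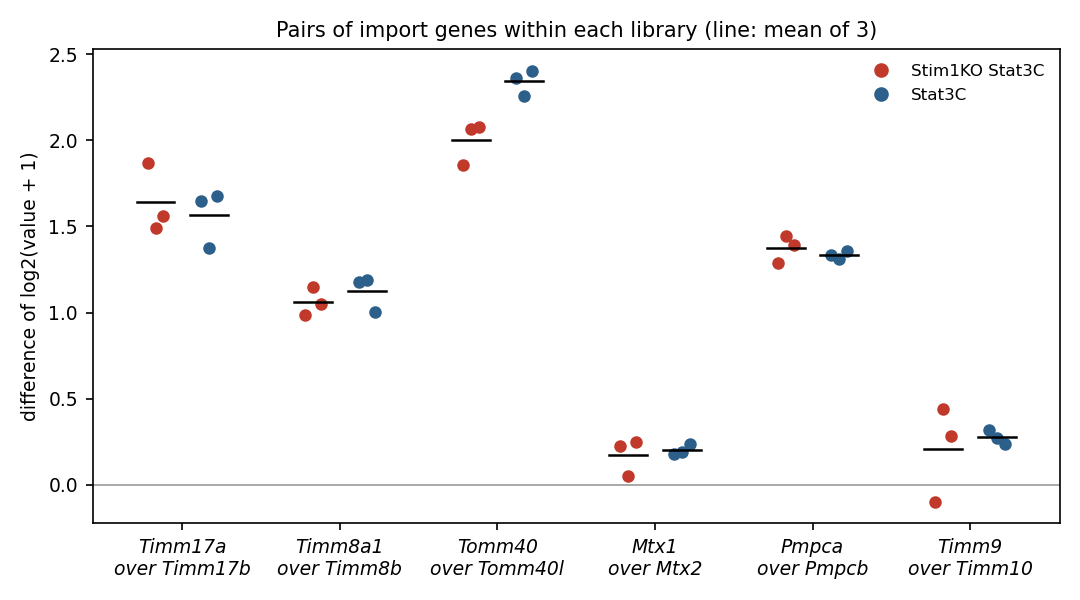
Log2 difference between the genes of 6 paralogue or partner pairs in each library, with Stim1KO Stat3C libraries left of Stat3C libraries and the group mean as a line. The groups are apart for Tomm40 and Tomm40l, with means of 2.00 and 2.34, and overlap for the other 5 pairs.

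Genes that serve import but carry other names were taken from a list of 28, all of them tested. By limma 5 fell and 0 rose, beside 4.96% of all tested genes lower. The log2 fold change was negative for 24, beside 50.2% of all tested genes, and the median of the list was -0.21. At an unadjusted p under 0.05, 11 were lower and 0 higher, beside 14.0% of all tested genes lower. edgeR called 5 lower and 0 higher, beside 4.70% of all tested genes lower, and DESeq2 10 lower and 0 higher, beside 8.40%. Without Stim1KO Stat3C replicate 1, Stat3C replicate 1 or Stat3C replicate 3 limma called 0. Without Stim1KO Stat3C replicate 2 it called only Romo1, without its replicate 3 only Hspe1, and without Stat3C replicate 2 it called 9 lower. The share of all tested genes lower moved along, from 1.17% without Stat3C replicate 1 to 9.98% without Stat3C replicate 2. Hspe1, the co-chaperonin that folds imported matrix proteins with Hspd1, stood at 5395 ± 351 normalised counts in Stim1KO Stat3C cells and 7153 ± 673 in Stat3C cells (log2 fold change -0.40, limma adjusted p = 0.0157). Gfer, the sulfhydryl oxidase that keeps the disulfide relay of the intermembrane space running, stood at 912 ± 15.4 against 1151 ± 76.6 (log2 fold change -0.33, limma adjusted p = 0.0205). The others were Romo1, a small inner membrane protein (log2 fold change -0.28), and the cytosolic Hsp90 genes Hsp90ab1 and Hsp90aa1, whose products hand precursors to the Tomm70a receptor (log2 fold changes -0.27 and -0.24).

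Proteins with twin cysteine motifs enter the intermembrane space through that disulfide relay, as the small TIMs do. Of 19 such genes tested outside the machinery, limma called 2 lower and 0 higher, beside 4.96% of all tested genes lower. The log2 fold change was negative for 15, beside 50.2% of all tested genes, and the median of the list was -0.06. At an unadjusted p under 0.05, 4 were lower and 0 higher, beside 14.0% of all tested genes lower. edgeR called 1 lower and 0 higher, beside 4.70% of all tested genes lower, and DESeq2 2 lower and 0 higher, beside 8.40%. No result about the list is read from counts of called genes this near the background. With 1 library left out limma called 2 without Stim1KO Stat3C replicate 3 (Chchd3 and Chchd1) or Stat3C replicate 2 (Chchd3 and Coa5) and 0 without any of the other 4. Over these settings the share of all tested genes lower ran from 1.17% without Stat3C replicate 1 to 9.98% without Stat3C replicate 2. Those called by limma were Chchd3, a subunit of the complex that shapes the cristae, with 1964 ± 123 normalised counts in Stim1KO Stat3C cells and 2343 ± 57.5 in Stat3C cells, and Coa5, a cytochrome oxidase assembly factor, with 3012 ± 68.2 against 3427 ± 102. Their log2 fold changes were -0.26 and -0.19 (limma adjusted p = 0.0321 and 0.0455).

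**Figure D5:**
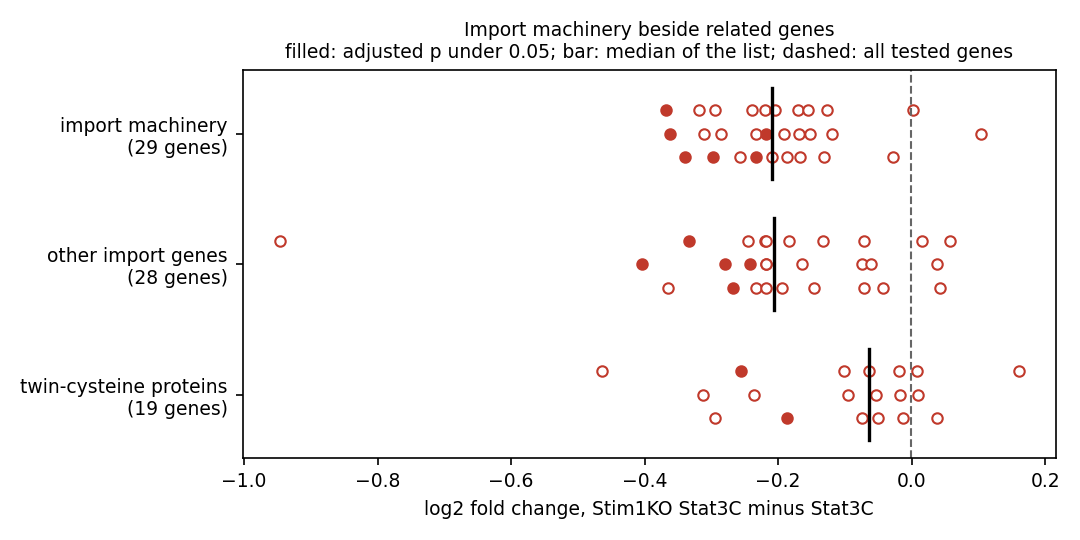
Log2 fold change, Stim1KO Stat3C minus Stat3C, of each gene in 3 lists: the 29 import genes, 28 other genes that serve import and 19 twin-cysteine proteins. Filled points passed an adjusted p of 0.05 by limma, bars mark the list medians of -0.21, -0.21 and -0.06, and the dashed line is the median of all tested genes.

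Promoter sequences are shown for called members, to set genes with and without known letters of mitochondrial gene promoters beside each other, and for Tomm22, which had the most matches in TOM and did not pass. The windows run from 250 bases before to 50 after the RefSeq start (GRCm38.p6), and capitals mark a match on either strand to the ETS core CCGGAAG (reverse complement CTTCCGG), to 8 letters of the NRF1 site, GCGCATGC (GCATGCGC), or to the E-box CACGTG. NRF1 and the ETS factor GABP are known regulators of nuclear genes for mitochondria. The windows are chr14:32201842-32202141, minus strand, for Timm23, chr3:89213858-89214157, minus strand, for Mtx1, chr10:80900920-80901219, minus strand, for Timm13, chr7:19715380-19715679, minus strand, for Tomm40, and chr15:79670618-79670917, plus strand, for Tomm22.
Timm23: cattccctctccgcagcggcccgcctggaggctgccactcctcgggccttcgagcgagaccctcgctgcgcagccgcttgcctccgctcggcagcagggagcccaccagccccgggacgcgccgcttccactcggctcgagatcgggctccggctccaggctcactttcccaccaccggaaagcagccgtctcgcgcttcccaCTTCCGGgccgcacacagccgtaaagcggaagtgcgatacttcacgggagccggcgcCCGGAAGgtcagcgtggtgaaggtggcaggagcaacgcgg
Mtx1: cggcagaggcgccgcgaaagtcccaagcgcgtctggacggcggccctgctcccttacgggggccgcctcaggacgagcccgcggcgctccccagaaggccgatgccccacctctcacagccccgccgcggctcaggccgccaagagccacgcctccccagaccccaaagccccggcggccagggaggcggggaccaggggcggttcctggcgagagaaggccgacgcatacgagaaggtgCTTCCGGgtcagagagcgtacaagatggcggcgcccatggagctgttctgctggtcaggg
Timm13: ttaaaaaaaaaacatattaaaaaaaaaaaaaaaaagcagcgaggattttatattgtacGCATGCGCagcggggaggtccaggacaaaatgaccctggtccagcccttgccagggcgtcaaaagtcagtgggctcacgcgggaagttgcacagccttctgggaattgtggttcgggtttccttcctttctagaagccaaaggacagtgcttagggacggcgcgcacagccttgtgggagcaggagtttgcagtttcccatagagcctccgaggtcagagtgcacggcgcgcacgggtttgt
Tomm40: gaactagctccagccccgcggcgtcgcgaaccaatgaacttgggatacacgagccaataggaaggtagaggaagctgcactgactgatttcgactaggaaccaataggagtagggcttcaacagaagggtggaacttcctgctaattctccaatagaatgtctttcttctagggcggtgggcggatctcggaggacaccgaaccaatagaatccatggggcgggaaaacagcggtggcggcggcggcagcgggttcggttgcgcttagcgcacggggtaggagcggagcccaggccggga
Tomm22: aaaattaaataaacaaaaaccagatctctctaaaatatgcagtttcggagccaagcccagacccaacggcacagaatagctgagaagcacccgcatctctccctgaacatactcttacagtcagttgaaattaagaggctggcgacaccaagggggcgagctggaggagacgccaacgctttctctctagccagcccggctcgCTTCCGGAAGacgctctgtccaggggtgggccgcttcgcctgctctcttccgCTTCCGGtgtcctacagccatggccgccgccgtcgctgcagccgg

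The Timm23 window held 2 ETS cores, 47 bases before the start and at position 11 after it, and the Mtx1 window held 1, 10 bases before the start. That start of Mtx1 is the one in RefSeq. Its window lies inside the gene as GENCODE places it, chr3:89209081-89227088, whose start is elsewhere. The Timm13 window held 1 match to the NRF1 letters, 192 bases before the start, and the Tomm40, Tomm5 and Samm50 windows held no match to the letters searched. The Tomm22 window held 3 ETS matches, of which the first 2 overlap as the opposite strands of CTTCCGGAAG. A match is a description of letters and not of a bound site.

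Windows were at hand for 26 of 29 members. The ETS core was in 12 of these, 46.2%, against 19.2% of 8726 tested protein-coding genes and 11.9% of all 17492 with a window. The NRF1 letters were in 2 (Timm13 and Grpel1), 7.69% against 5.80% of tested genes, and the E-box in 4 (Timm10, Tomm20, Timm9 and Timm8a1), 15.4% against 10.5%. Only these exact letters were searched, so NRF1 sites spelled otherwise were missed. The count is therefore not one of members with or without an NRF1 site. The median log2 fold change was -0.21 for the 12 members with an ETS core and -0.26 for the 14 without it. Of these, 2 of 12 and 4 of 14 were called lower, beside 4.96% of all tested genes. A link between the ETS core and the change was not tested.

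The members are scattered, lying on 17 chromosomes, and only Timm17b and Timm8a1 are on the X. For 6 of them a protein-coding gene on the opposite strand starts within 1000 bases upstream of the member's GENCODE start and reads away from the member. Opposite-strand genes that start downstream of a member's start were not counted. Of the 6 neighbours limma and edgeR called 0, beside 4.96% and 4.70% of all tested genes lower. At an unadjusted p under 0.05 limma had 1 lower, beside 14.0%, and DESeq2 called 1 lower, beside 8.40%. No result about the neighbours is read from counts this near the background. Parg, which encodes the hydrolase that degrades poly(ADP-ribose) and starts 51 bases from Timm23, was at 1333 ± 152 normalised counts in Stim1KO Stat3C cells and 1338 ± 51.4 in Stat3C cells, a log2 fold change of -0.01 beside -0.30 for Timm23. Sdhd, a subunit of succinate dehydrogenase that starts 98 bases from Timm8b, was at 3304 ± 127 against 3682 ± 87.2 (log2 fold change -0.16, limma adjusted p = 0.085) without overlap. The remaining neighbours, Sdccag3 beside Pmpca, Pqbp1 beside Timm17b, 2700049A03Rik beside Timm9 and Frs3 beside Tomm6, had overlapping groups.

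Some values may include reads of another gene, since no source used here gives the counting settings. Exons of 15 members share bases with another gene, 13 of them with one on the opposite strand. For Tomm40l the shared stretch with Nr1i3 is 3304 bases, and Nr1i3 was listed at 0 in all 6 libraries. Of the called members, Tomm5 has no such overlap. Mtx1 shares 318 bases with Thbs3 on the opposite strand, which stood at 41.4 ± 15.6 against 31.1 ± 8.38 normalised counts, and 759 with Gm43737. Timm13 shares 43 bases with Tmprss9, which stood at 2.60 ± 3.39 against 1.10 ± 0.746, and Tomm40 shares 258 with the antisense gene Gm20512. On the same strand, Samm50 shares 111 bases with Gm49513 and Timm23 shares 104 with the snoRNA gene Gm23946. No value is given here for Gm43737, Gm20512, Gm49513 or Gm23946. Transcripts of other genes at least 95% identical over 200 bases or more exist for 8 members. Timm23 has 6 such genes, with a longest match of 1121 bases at 99.9% identity, so its counts are uncertain, while the other 5 called members have no such copy.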

How the data were processed

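The values are a normalised signal per gene and library that the authors deposited, taken to be read counts divided by a size factor per library. In each column 100% of the values were whole multiples, within 0.01, of 1 step, which gave back whole reads. The build mm10 and the tools DESeq2 1.22.2, HTSeq 0.11.1 and TopHat2 2.1.1 come from the submitters' processing notes, without a role for each. Per the labels' protocols, a strand-specific mRNA kit was used on 100 ng of RNA. No source used here gives the counting settings. A value of 0 allows up to 3 reads, or 1.30 to 4.11 normalised counts, which covers counting error only.

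Of 23420 rows, 27 had a date for a name and were left out. Genes with a mean of at least 10 were tested two-sided on log2(value + 1) with limma 3.58.1 (R 4.3.3) and its variance trend, with Benjamini-Hochberg adjustment over 11947 genes and a threshold of 0.05. A fold change on this scale understates that of low genes, a small matter at the members' levels. edgeR 4.0.16, DESeq2 1.42.0 and voom on recovered reads, other pseudocounts, filters, scalings and weights, thinning, Xist as a covariate and leaving out each library were alternatives. The code was tested on simulated data.

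The members and lists were chosen with earlier results of these data known. Values in every library are given for called members and for the highest member of each role; Tomm40l, Tomm70a and Timm50 were added after their values were seen. Of the other import genes those called are named, and Hspa9 was added as the motor's Hsp70. Positions are from GENCODE mouse release M21 (GRCm38) and promoters from RefSeq. The NRF1 search used 8 letters of the site in place of 10 and allowed no variant of them. Replicates are numbered in accession order and pair nothing. No batch is given in the labels.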

Additional observations from a re-analysis of the deposited data

How the results depend on the processing

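No paired analysis was possible because the labels carry no replicate numbers shared by the groups. The count of members lower was 6, and it was 1 by limma without a variance trend, 21 with library quality weights, 14 by DESeq2 and 0 to 13 when 1 library was left out. It was 5 to 9 under the other alternatives, and the count of members higher was 0 under all 19. The median log2 fold change of the members lay between -0.24 and -0.15 over all alternatives. The genes called over the whole table numbered 1623, and 827 without the trend, 3959 with quality weights and 617 to 2899 when 1 library was left out. The cause of these shifts was not tested. The share of all tested genes called lower moved along, being 1.87% without the trend, 15.1% with quality weights and 8.40% by DESeq2. When 1 library was left out, that share ran from 1.17% without Stat3C replicate 1 to 9.98% without Stat3C replicate 2. Under the other alternatives it ran from 2.89% without a filter on low values, where 5 members passed, to 6.39% with quantile normalization, where 9 passed. Of 551 values of single members under the alternatives, 479 kept their side of the threshold and 31 were no longer past it. A further 41 passed it newly, and 0 changed sign as called values. Uncalled values did change sign for Tomm40l, negative under 9 of the 19 alternatives, and for Timm22, negative under 18. With 3 libraries a group, a member whose replicates spread as widely as those of Timm9 did not pass at a log2 fold change of -0.29.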
